A study of Drosophila melanogaster with 2 samples.

Results

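Binding of the transcription factor Atf6 was examined at 10 genes for chaperones and folding enzymes of the endoplasmic reticulum (ER), out of 13968 protein-coding genes on the chromosome arms. The genes were chosen by name and function, with earlier results of these data known. They included the lectin chaperones Cnx99A and Calr, and the chaperones and co-chaperones Gp93, Grp170 and P58IPK. The others were the thioredoxin-fold genes ERp60, CaBP1 and prtp, the prolyl isomerase gene Fkbp14, and Manf. All 10 were found by symbol in the annotation. Binding was mapped by chromatin immunoprecipitation and sequencing in whole Drosophila melanogaster embryos of strain Atf6-GFP, aged 0 to 24 h, which express a fusion of Atf6 with eGFP. An antibody against GFP was used for the precipitation. There was 1 group of 2 biological replicates from 1 strain, and no comparison between conditions was possible. The labels name no stress treatment and no promoter for the transgene, and whole embryos mix all cell types and stages of that period.

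Secretory and membrane proteins fold in the ER, where chaperones hold unfolded chains, lectins retain glycoproteins until they are folded, and oxidoreductases and isomerases form disulfide bonds and turn proline bonds. When unfolded proteins accumulate, the unfolded protein response raises the transcription of these genes through Ire1 with its target Xbp1, through PEK with Atf4, and through Atf6. In vertebrates, ATF6 is a membrane protein of the ER that is cut free in the Golgi under stress, enters the nucleus and activates chaperone genes.

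The data were the authors' peak lists on the dm6 build. Signal is the authors' score of a peak, of unstated scale, and is compared between regions only within 1 list. The irreproducible discovery rate (IDR) is the authors' measure of how poorly a region's rank is repeated, so a low value marks a repeatable region. What was compared to give the IDR of the main list is not labelled. An IDR in a single replicate's own list cannot measure agreement between the replicates. A thresholded list of both replicates held 5846 peaks, all with an IDR of at most 0.01, and is called the main list here. A longer ranked list held 105892 regions, most of which did not reach that limit. A promoter peak was a main-list peak whose summit lay within 500 bp of any annotated transcription start of the gene. The lists hold no read counts, so the sequencing depth is unknown.

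Promoter peaks were present at 5 of the 10 genes: Fkbp14, prtp, Cnx99A, Gp93 and ERp60. Of all protein-coding genes, 21.6% had a promoter peak. No peak of the main list lay at the promoters of P58IPK, Calr, Manf, Grp170 and CaBP1, but each of these had a region in the ranked list within 500 bp of a start. Such a region was found at 75.5% of all protein-coding genes, so its presence alone does not set a gene apart. The signals of the 10 genes spanned a wide range. Fkbp14 had 1279, prtp 280.4, Cnx99A 170.9, Gp93 124.4, P58IPK 98.9, Calr 96.2, ERp60 83.6, Manf 65.9, Grp170 43.9 and CaBP1 18.5.

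**Figure D1:**
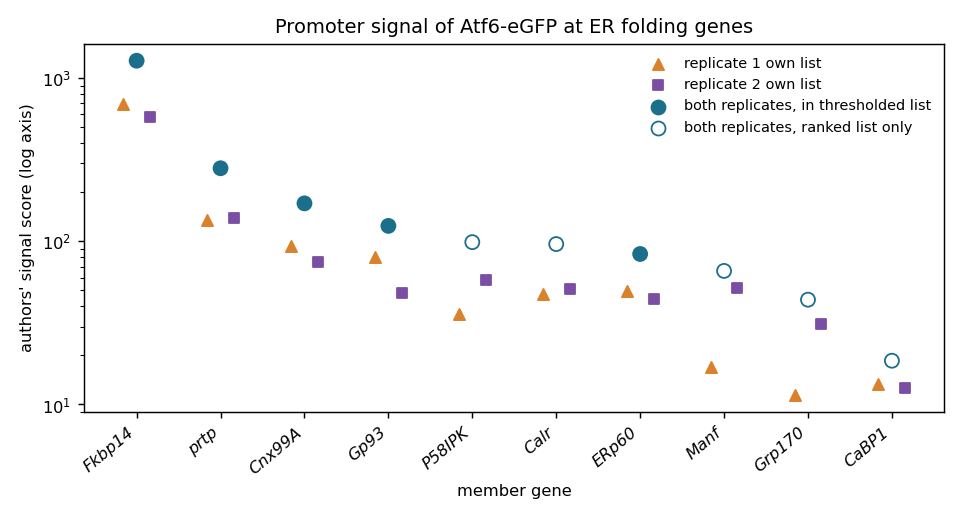
Signal score of the strongest promoter region of each gene (log axis), in both replicates together (circles, filled where the region is in the main list) and in the own ranked list of replicate 1 (triangles) and replicate 2 (squares). Fkbp14 stands highest at 1279 and CaBP1 lowest at 18.5, and the replicates lie farthest apart at Manf and Grp170. Each list has its own scale, so a circle's height above the triangles and squares carries no meaning.

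Of the lectin chaperones, the calnexin gene Cnx99A had a promoter peak and the calreticulin gene Calr did not. Calnexin is the membrane-bound and calreticulin the soluble member of a pair that binds glycoproteins carrying a trimmed glucose-bearing glycan. The Cnx99A peak (chr3R:29319641-29319803, dm6, gene on the minus strand) had a signal of 170.9, rank 1363 of the main list, with an IDR of 9.88e-05. In the replicates' own ranked lists its signal was 93.9 in replicate 1 and 74.2 in replicate 2, and it passed the threshold in each. The replicate summits lay 0 and 1 bp from the joint summit, which was intergenic and 83 bp upstream of the nearest Cnx99A start. The joint peak was 163 bp wide, against a median of 396 bp in the main list, where 11.3% of peaks were narrower than 300 bp. An annotated jockey transposable element starts 158 bp from the summit. A second main-list peak, of signal 112.2, lay 741 bp downstream of a start, in an intron of Cnx99A, and by itself only replicate 1 had it called.

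Calr had a region in the ranked list that met the IDR limit and was nevertheless absent from the main list. This region (chr3R:9630670-9631065, gene on the minus strand) had a signal of 96.2 and an IDR of 0.00149, with its summit 17 bp upstream of the single Calr start. The noncoding sisRNA:CR46357, on the same strand, has a start 428 bp from this summit. Its signal was 47.6 in replicate 1 and 51.2 in replicate 2. The IDR was 0.166 in the ranked list of replicate 1, above the limit. It was 0.00255 in that of replicate 2 and 0.00193 in the ranked list that belongs to the conservative list, and the region was absent from both of those thresholded lists too. Across the ranked list of both replicates, 165 of the 6011 regions at or below an IDR of 0.01 were missing from the main list in the same way. Another of these, with a signal of 2.23, had its summit 545 bp from that of Calr. The thresholded lists were derived from 1 further file of unstated content, whose part in the absence of the Calr region was not tested. Counting every ranked region within the IDR limit, 6 of the 10 genes had a promoter peak, against 22.2% of all protein-coding genes.

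The sequences at the called peaks of Cnx99A, Gp93 and prtp and upstream of Calr and Manf are shown as examples of called regions and of regions outside the main list. Each is given 5′ to 3′ on the strand of its gene. Capitals mark matches to any of the 14 words searched, here ACGT, CCACG and GGTATTT. The first 3 windows span 101 bases centred on the summit, and those of Calr and Manf are the 100 bases before the start.
Cnx99A, chr3R:29319677-29319777, minus strand: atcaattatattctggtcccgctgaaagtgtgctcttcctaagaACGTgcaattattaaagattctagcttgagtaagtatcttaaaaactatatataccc
Gp93, chr3R:27948551-27948651, plus strand: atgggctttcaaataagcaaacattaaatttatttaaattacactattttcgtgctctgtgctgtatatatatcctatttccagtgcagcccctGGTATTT
prtp, chrX:11716208-11716308, plus strand: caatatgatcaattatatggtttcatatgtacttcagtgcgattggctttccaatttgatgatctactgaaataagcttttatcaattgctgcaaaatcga
Calr, chr3R:9630852-9630951, minus strand: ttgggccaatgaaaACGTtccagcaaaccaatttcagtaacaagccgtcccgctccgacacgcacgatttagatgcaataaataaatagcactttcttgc
Manf, chr3R:16349304-16349403, plus strand: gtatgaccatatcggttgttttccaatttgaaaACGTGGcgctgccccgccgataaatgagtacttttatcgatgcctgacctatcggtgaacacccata

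Among the heat shock protein relatives and their partner, Gp93 had a promoter peak, P58IPK was just beyond the IDR limit, and Grp170 was far from it. Gp93 encodes the Hsp90 of the ER. Its peak (chr3R:27948403-27948798, plus strand) had a signal of 124.4, rank 2193, and an IDR of 0.000296, with the summit 110 bp upstream of the start in intergenic sequence. The signal was 80.4 in replicate 1 and 48.3 in replicate 2. Replicate 1 by itself and the conservative list both held this peak, but in replicate 2 the IDR was 0.0148 and it was not called. The nearest other start, 580 bp from the summit, belonged to mfrn, the mitochondrial iron carrier gene on the opposite strand.

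P58IPK encodes a J-domain co-chaperone that works with the ER Hsp70 in mammals. Its region (chr3R:9586799-9587194, plus strand) had a signal of 98.9, above those of Calr and ERp60, but an IDR of 0.0123. The summit lay 55 bp downstream of the start, in the 5′ untranslated region. The signal was 35.8 in replicate 1, with an IDR of 0.329, and 58.01 in replicate 2, with an IDR of 0.00978. The region was therefore called in replicate 2 and not in replicate 1. It was also in the authors' conservative list, of 4884 peaks, with an IDR of 0.00423. That list held promoter peaks of 6 of the 10 genes, P58IPK added to those of the main list, against 19.3% of all protein-coding genes.

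Grp170 encodes a large Hsp70 relative, in mammals a nucleotide exchange factor of the ER Hsp70. Its region (chrX:2274935-2275330, minus strand), 65 bp upstream of a start, had a signal of 43.9 and an IDR of 0.803. The signal was 11.4 in replicate 1 and 31.2 in replicate 2, and the replicate summits lay 97 and 21 bp from the joint one. The closest main-list summit was 18626 bp from a Grp170 start.

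The 3 genes with thioredoxin folds fell on both sides of the limit. ERp60 and CaBP1 encode members of the protein disulfide isomerase family, and prtp a protein with thioredoxin domains that also serves as a signal for the engulfment of dying cells in flies. The prtp peak (chrX:11716147-11716373, plus strand) had a signal of 280.4, rank 617, and an IDR of 1e-05, the lowest value the list can show. The signal was 135.6 in replicate 1 and 138.6 in replicate 2, and both own lists held it. Its summit lay 498 bp upstream of the first prtp start, just inside the 500 bp limit, in an exon of lncRNA:CR45618. The start of this noncoding RNA was 462 bp and that of Amun 693 bp from the summit. At a limit of 250 bp prtp had no promoter peak, so the assignment of this peak to prtp rests on the window. Under that limit 4 of the 10 genes had a promoter peak, against 17.7% of all protein-coding genes. A further main-list peak, of signal 196.8, lay at -1872 bp from the prtp start, in the 5′ untranslated region of Amun.

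The promoter peak of ERp60 (chr2R:11890769-11891164, minus strand) had a signal of 83.6, rank 3899, and an IDR of 0.00189. The signal was 49.4 in replicate 1 and 44.4 in replicate 2, where the IDR of 0.0281 missed the limit. Its summit lay 12 bp downstream of the ERp60 start and 168 bp from the start of eEF1alpha1, which encodes the translation elongation factor and is transcribed in the opposite direction. One peak was thus shared by a divergent gene pair. The promoter peak was not the strongest at this locus. Main-list peaks of signal 177.5 and 162.4 lay 1264 and 1055 bp downstream of the start, in an intron of ERp60, and another of 149.5 lay in an intron of eEF1alpha1, all 3 in the own lists of both replicates. CaBP1 had the lowest joint signal of the 10 genes. Its region (chr2L:16356511-16356906, minus strand) had a signal of 18.5 and an IDR of 0.318, with 13.3 in replicate 1 and 12.7 in replicate 2. The summit lay 26 bp downstream of the start in the joint list, and the replicate summits were 23 and 167 bp from it.

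Fkbp14, which encodes a prolyl isomerase of the ER, had by far the strongest peak. It lay at chr2R:21497152-21497521 (minus strand), with a signal of 1279, rank 22 of the main list, and the lowest IDR the list can show, 1e-05. The signal was 698.3 in replicate 1, rank 25 of that replicate's ranked list, and 580.5 in replicate 2, rank 21. The replicate summits were 1 and 4 bp from the joint summit. The gene has 4 annotated starts. The summit lay 115 bp upstream of one internal start and 604 bp downstream of the 5′ end of the gene, within an intron by annotation. With the 5′ end as the only start, Fkbp14 had no promoter peak and no region in the ranked list. Its promoter signal then counted as 0. Its percentile of 13.1 is the value shared by all protein-coding genes without a region. With the 5′ end as the only start, 4 of the 10 genes had a promoter peak, against 19.1% of all protein-coding genes. Weaker main-list peaks, of signal 94.6 and 19.2, lay further into the gene, at 1585 and 1375 bp from its 5′ end. They were 430 and 220 bp downstream of another internal start, so they also met the definition of a promoter peak. By itself only replicate 1 had them called.

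Manf encodes a small secreted protein of the ER that is induced by ER stress and supports neurons. Its region (chr3R:16348951-16349346, plus strand) had a signal of 65.9 and an IDR of 0.0131, just above the limit. The replicates differed most here: the signal was 17.1 in replicate 1, with an IDR of 0.404, and 51.8 in replicate 2, with an IDR of 0.0113. Its summit lay 255 bp upstream of the Manf start and 77 bp downstream of that of CG14879, a gene on the opposite strand, so the region is nearer to the neighbour. In the ranked list that compares 1 signal per replicate, its IDR was 0.493.

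**Figure D2:**
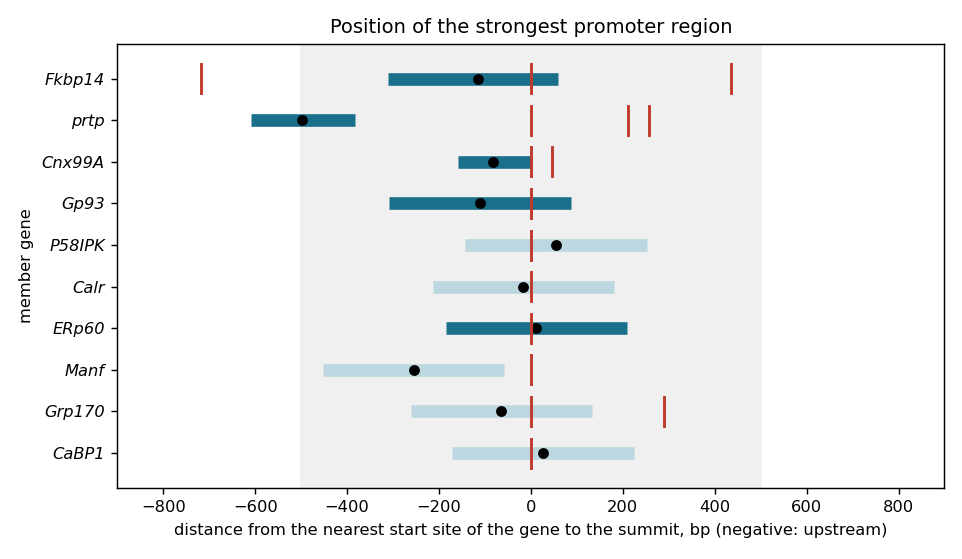
Position of the strongest promoter region of each gene relative to the nearest of the gene's own start sites, which is set at 0 (negative values are upstream). Bars are the regions (dark in the main list, pale in the ranked list only), black dots their summits, red lines annotated starts and the grey band the 500 bp limit. The prtp summit, at -498 bp, sits at the edge of the band, and the other 9 lie between -255 and 55 bp.

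Of the 10 summits, which include regions outside the main list, 7 lay upstream of the nearest start of the gene itself. The 3 summits downstream, at P58IPK, ERp60 and CaBP1, lay in annotated 5′ untranslated regions. All main-list promoter summits were measured from the nearest start of any protein-coding gene. Of these, 69.2% lay upstream, and the median position was -83 bp. By that measure the Manf summit lies downstream, 77 bp from the start of CG14879. The region was shared with the start of another protein-coding gene at ERp60 and Manf. Among all main-list promoter peaks, 29.6% lay within 500 bp of starts of 2 or more protein-coding genes. A gene with more starts has more positions at which a summit counts. Of the 7 genes with a single start, after starts within 50 bp were joined, 3 had a promoter peak, against 16.1% of all such genes. Of the 2 genes with 2 starts, 1 had a promoter peak, against 32.5%. The 1 gene with 3 or more starts, Fkbp14, had a promoter peak, against 51.0%.

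Both replicates had Fkbp14, prtp and Cnx99A highest, in that order. Gp93 came next in replicate 1 and P58IPK in replicate 2. In a ranked list that holds 1 signal per replicate, the 2 values of each of the 10 regions were the same as those in the replicates' own lists. Their log2 ratio, replicate 1 over replicate 2, ran from -1.60 at Manf and -1.46 at Grp170, through -0.70 at P58IPK, to 0.74 at Gp93. At Fkbp14, prtp, Cnx99A, Calr, ERp60 and CaBP1 it lay between -0.11 and 0.34. Over the strongest ranked promoter region of all genes, 8836 regions, the median ratio was 0.08, with 5th and 95th percentiles of -1.71 and 1.76, so no member lay outside that range. The lists of the separate replicates called different members: replicate 1 alone gave Fkbp14, prtp, Cnx99A, Gp93 and ERp60, and replicate 2 alone gave Fkbp14, prtp, Cnx99A and P58IPK. The background was 16.7% of protein-coding genes in replicate 1 and 14.2% in replicate 2. Of the 5 genes in the main list, Fkbp14, prtp and Cnx99A were the 3 called in all 4 thresholded lists. Among all main-list promoter peaks, 47.8% overlapped a peak in the own lists of both replicates. That share does not take in the conservative list.

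**Figure D3:**
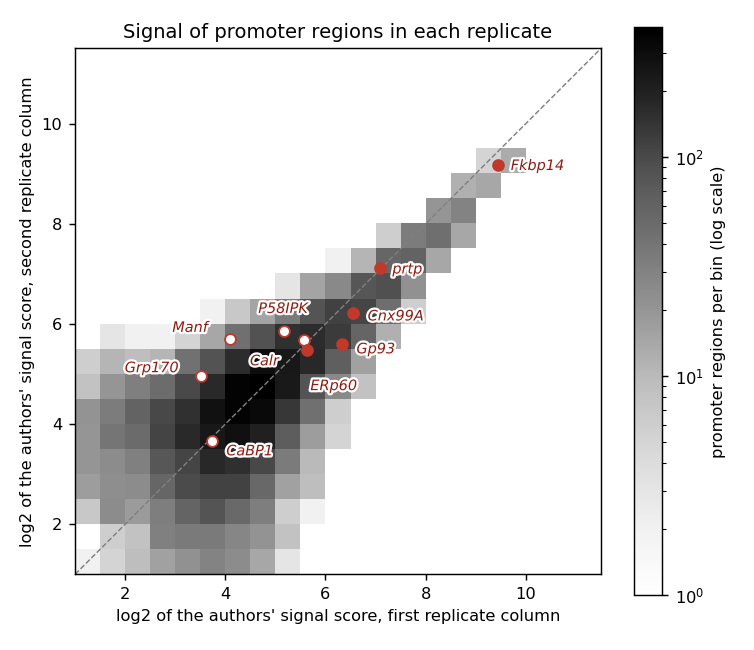
Signal of the strongest promoter region per gene in the 2 replicate columns of the ranked list, both axes on the log2 scale. Grey squares count regions of all protein-coding genes per bin, red dots mark members (filled where in the main list), and the dashed line is equality. Manf and Grp170 lie farthest above the line, and Fkbp14 lies at the upper end close to it.

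**Figure D4:**
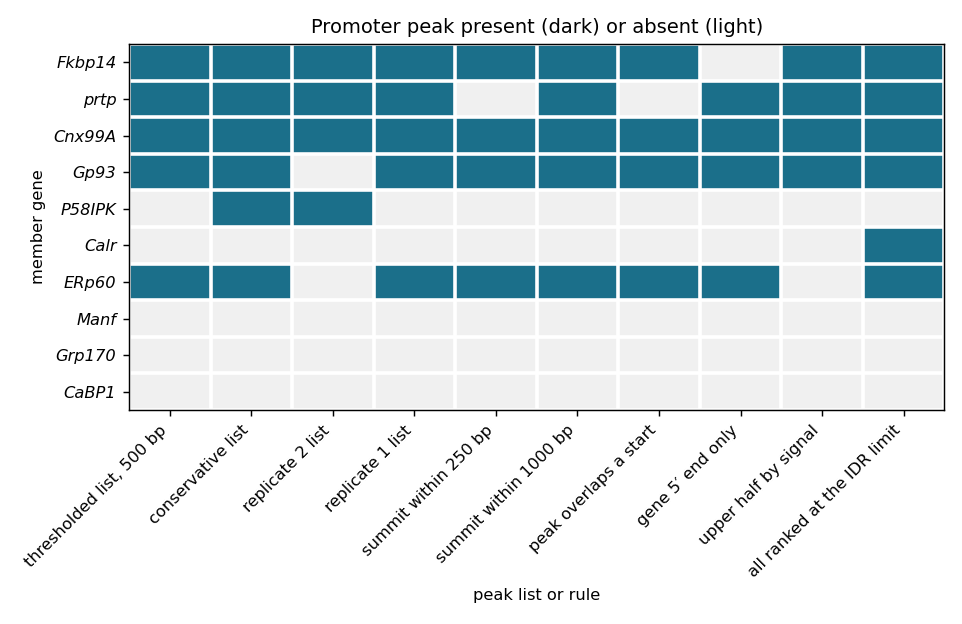
Presence of a promoter peak at each gene under the main list and rule and 9 alternatives. Fkbp14, prtp, Cnx99A, Gp93 and ERp60 were called in most columns, P58IPK in the conservative list and that of replicate 2, Calr when all ranked regions within the IDR limit were counted, and Manf, Grp170 and CaBP1 in none of the 10 columns.

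By rank, 9 of the 10 genes lay above the median of all protein-coding genes in promoter signal. Genes were ordered by their highest ranked signal within 500 bp of a start, with 0 for genes without a region. The median percentile of the 10 genes was 85.1, against 50 for all genes by definition. The genes ran from the 33.2nd percentile at CaBP1 and the 61.2nd at Grp170 through the 76.3rd at Manf, the 82.3rd at ERp60, the 84.9th at Calr and the 85.3rd at P58IPK. Gp93 stood at 88.9, Cnx99A at 92.7, prtp at 96.3 and Fkbp14 at 99.8. In the separate replicates, Manf stood at 53.2 in replicate 1 and 86.6 in replicate 2, and Grp170 at 34.8 and 72.4, while the percentiles of Fkbp14, Cnx99A, ERp60 and CaBP1 differed by less than 1 point. No test was made, because the genes were proposed with results of these data in view.

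**Figure D5:**
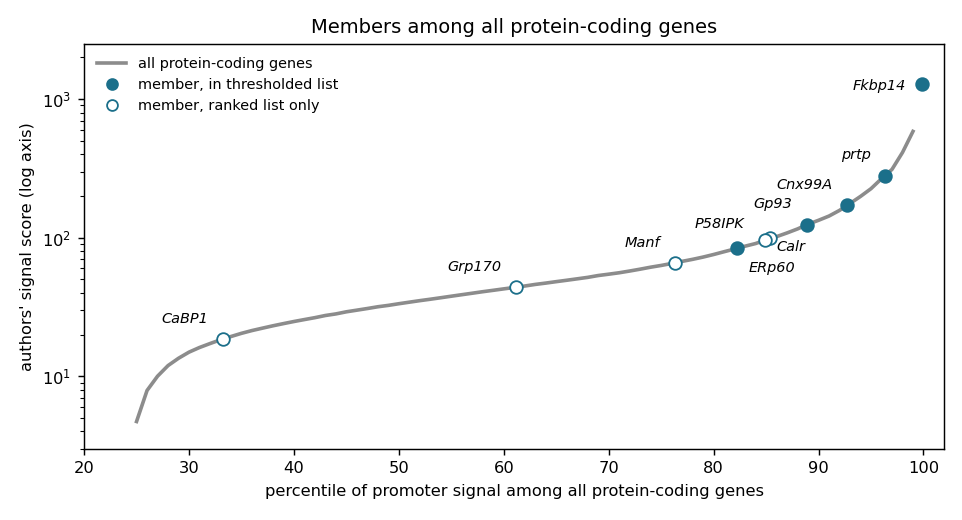
Signal of the strongest promoter region (log axis) against its percentile among all protein-coding genes. The grey line is the whole set of genes, of which those without a ranked region are not drawn, and the circles are the members, filled where the region is in the main list. Calr and P58IPK, both outside the main list, lie at a higher signal than ERp60, which is in it.

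None of the 10 promoters, taken as 250 bases before to 50 bases after the 5′ end of the gene, held the ATF6 core TGACGTGG, the ER stress element or its second form. The ATF6 core was present in 0.372% and the ER stress element in 0.0215% of the 13968 promoters of the same length, and the second form in 0 of them. The cyclic AMP response element TGACGTCA (0.437% of all promoters), the E-box CACGTG (4.20%), the Atf4 composite site TGATGNAAT (1.23%) and the Zelda word CAGGTAG (1.64%) were not found either. Both strands were searched. The shorter ACGT, the core of many leucine zipper sites, which lies inside TGACGTGG, TGACGTCA and CACGTG, was found at all genes but Fkbp14 and Gp93. It was found in 48.3% of all promoters. Within 100 bp of the summit in place of the promoter, ACGT was found at all genes but prtp and Gp93. Of the genes in the main list, Fkbp14, Cnx99A and ERp60 held it there, and prtp and Gp93 did not. The share was 32.9% of all main-list summits, at promoters or elsewhere. P58IPK, Calr, Manf, Grp170 and CaBP1 all held it, but their regions are outside the list that gives this share. The Manf promoter held ACGT at -67 bp within ACGTGG, where it overlaps a CCACG on the other strand. The promoter window does not reach the summits of Fkbp14, prtp, Manf and P58IPK, at 604, -498, -255 and 55 bp from the 5′ end. Within 100 bp of the summit, the ATF6 core and both forms of the ER stress element were found at none of the 10 genes. The ATF6 core was found there at 0.137% of all main-list summits.

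Other words were scattered over the genes. CCACG, a part of the ER stress element, was found at ERp60 and Manf (23.0% of all promoters), and the GAGA factor word GAGAG at prtp, ERp60, Grp170 and CaBP1 (29.7%). The Dref site TATCGATA was found at CaBP1 (9.36%), the M1BP site GGTCACAC and the TATA box word TATAAAA at Cnx99A (7.69% and 24.2%), and GGTATTT at Gp93 and CaBP1 (9.87%). A match is only a run of letters and was not tested as a binding site. The summits at Fkbp14, prtp, Gp93 and Cnx99A held less G and C than those at the other 6 genes, which include the called ERp60. Within 50 bases of the summit, G and C made up 23.8% at Fkbp14, 31.7% at prtp, 32.7% at Gp93 and 33.7% at Cnx99A, and 41.6% to 49.5% at the other 6 genes. The median over all main-list summits was 35.6%, with 5th and 95th percentiles of 21.8% and 56.4%, so no member lay outside that range.

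A wider list of 21 other ER folding genes, which left out all members, had few promoter peaks. Of these 21 genes, 2 were called, against 21.6% of all protein-coding genes, and the median percentile of their promoter signal was 65.1. The members, of which 5 of 10 were called, are not in this count. It therefore does not describe ER folding genes as a whole. GCS2beta, which encodes a subunit of the glucosidase that trims glycans in the ER, had a signal of 345.8, with 199.4 in replicate 1 and 151.2 in replicate 2 (chr2L:17484292-17484489). Its summit lay 76 bp upstream of its start and 118 bp from that of CG5131 on the opposite strand. CG14715, a gene of the FK506-binding family, had 84.8, with 45.7 in replicate 1 and 46.9 in replicate 2 (chr3R:11673854-11674249), and by itself only replicate 2 had it called. The best region of Hsc70-3, which encodes the ER Hsp70 that Grp170 and P58IPK serve in mammals, had a signal of 63.3 and an IDR of 0.0472, with 24.8 in replicate 1 and 41.2 in replicate 2. Pdi, which encodes the protein disulfide isomerase itself, was named after its values were seen. Its best region had a joint signal of 58.8 and an IDR of 0.0612, and was not in the main list. The signal was 5.52 in replicate 1 and 58.8 in replicate 2, and by itself only replicate 2 had it called.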

How the data were processed

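The authors deposited peak lists on dm6 for each replicate and for both together. Per the text files deposited with the lists, every list was derived from alignments to dm6 and 1 file common to all lists, taken here to be the control since tracks over control derive from it too. Every thresholded list used 1 further file. The control was not analysed here. Which aligner and peak caller were run is not given in the sources used here. The signal score and the −log10 of the IDR (at most 5) are the authors' deposited values. Transcription starts came from the Ensembl annotation (release 115, BDGP6 version 54). Sequences were read from RefSeq's genome of this assembly, where 13965 of 13967 genes matched by symbol had the same coordinates. The 2 signals per region in the ranked list of the conservative list carry no sample name. A further 14 unlabelled columns were not used. Replicate values came from the overlapping region of highest signal in each replicate's own ranked list.

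The members, the wider list and the words were chosen with earlier results of these data known. The text names all members, genes with a start within 500 bp of a member's summit or nearest to it, called genes of the wider list, and Hsc70-3. CG5131 falls outside this rule and is named as a neighbour of GCS2beta. The neighbours mfrn and Amun, and Pdi, were named after their values were seen. Of the 21 wider names, 1 was found through a synonym. No protein sequences were used, so planned protein features are not reported. The assignment of peaks to genes and the word search were tested on simulated data. Alternatives were the conservative list, each replicate's list, windows of 250 and 1000 bp, overlap of at least 1 bp with a start, the 5′ end of the gene alone, the 2923 peaks of highest signal, and all ranked regions within the IDR limit. The planned interval of the members' share is not printed, since the genes are not a random draw. Scripts ran in Python 3.11.15 with matplotlib 3.10.9, SciPy 1.17.1, pandas 2.3.3 and numpy 2.4.6.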

Additional observations from a re-analysis of the deposited data

How the results depend on the processing

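The number of the 10 genes with a promoter peak stayed between 4 and 6 over the 9 alternatives, with 5 called in replicate 1 by itself and 4 in replicate 2. Over the same alternatives the share of all protein-coding genes ran from 13.6% to 25.4%. It was 16.7% in replicate 1 and 14.2% in replicate 2. Without replicate 1, Gp93 and ERp60 were lost and P58IPK was gained. ERp60 was also lost among the 2923 peaks of highest signal, and prtp where the peak had to overlap a start. Each of these rules left 4 of the 10 genes, against 13.6% and 14.4% of all protein-coding genes. Within 1000 bp of a start the count was 5, against 25.4%. For the 21 wider genes the count was 2, and fell to 1 among the 2923 peaks of highest signal (13.6% of all protein-coding genes). It was 3 without replicate 1 (14.2%), 2 without replicate 2 (16.7%) and 3 within 1000 bp of a start (25.4%). The median percentile of 85.1 moved to 82.4 at 1000 bp, beyond the replicate SD of 2.10, and ranged from 83.5 to 86.5 in the single replicates. Within 100 bp of the summit the words TATCGATA and TATAAAA were found at 0 genes. No paired analysis was possible because there was 1 group. Unknown depth limits what an absent peak can show.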
